A study of Homo sapiens with 11 samples.

Results

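The mitochondrial ribosomal protein genes were taken as the protein-coding genes whose symbol begins with MRPL or MRPS followed by a digit. There were 78 of them among the 20020 protein-coding gene symbols of the GENCODE 44 annotation. By current structural nomenclature, 51 encode proteins of the large subunit of the mitochondrial ribosome and 26 encode proteins of the small subunit. MRPS30 and MRPS18A belong to the large subunit in spite of their symbols. MRPS36, now also known as KGD4, is a component of the 2-oxoglutarate dehydrogenase complex and was placed in neither subunit.

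The mitochondrial ribosome translates the few messenger RNAs of the mitochondrial genome, which encode core subunits of the respiratory chain. All of its proteins are encoded in the nucleus, made in the cytosol and imported. Some have a counterpart in bacterial ribosomes and others are specific to mitochondria. Ikaros, encoded by IKZF1, is a zinc finger transcription factor of lymphoid development whose DNA-binding activity is known to be reduced by phosphorylation by the protein kinase CK2.

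The data were Ikaros chromatin immunoprecipitation sequencing (ChIP-seq) peak lists from 4 established human pre-B cell acute lymphoblastic leukemia lines. JM1 cells had been given the CK2 inhibitor CX-4945 at 20 µM for 1 day or left untreated, REH and 697 cells were studied without the drug, and the Nalm6 cells had received CX-4945 at 20 µM for 1 day. Each condition had 1 list. The lists held 88692 peaks in CX-4945-treated JM1, 37448 in untreated JM1, 83563 in REH, 19652 in 697 and 70894 in CX-4945-treated Nalm6, and read depth is unknown from these files. JM1 and REH shared a Bethyl antibody, whereas 697 and Nalm6 were studied with an affinity-purified one, so that line and antibody cannot be told apart between these pairs. With 1 list per condition no difference below has a replicate check, no test was made and no p-value is given. At the transcription start sites (TSSs) of 10 B-lineage marker genes, peaks were listed for 10 genes in treated JM1, 8 in untreated JM1, 9 in REH, 3 in 697 and 9 in Nalm6, and of 10 T-lineage markers for 7, 5, 6, 5 and 6 in the same order. CD2, CD3E and CD3G were the T-lineage markers with no such peak in any list. Of all protein-coding genes, 81.2, 58.8, 81.8, 49.5 and 74.4% had such a peak in the same order of lists. Peaks say nothing of the expression of these markers.

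A gene was counted as having a peak when part of a peak lay no more than 1000 bp from one of its annotated TSSs. By this rule, 69 of the 78 mitochondrial ribosomal protein genes had a peak in treated JM1 and 34 in untreated JM1. The other lists held a peak for 70 of them in REH, 25 in 697 and 53 in Nalm6. In treated JM1 this was 88.5% of the genes, against 81.2% of all protein-coding genes, and in untreated JM1 43.6% against 58.8%. The share was 89.7% in REH, against 81.8% of all genes, 32.1% in 697, against 49.5%, and 67.9% in Nalm6, against 74.4%. By this rule the mitochondrial ribosomal protein genes stood above the background in the 2 lists with the most peaks and below it in the other 3. In treated JM1 the share was close to the background when only peaks with a score of at least 20 were kept (73.1%, against 71.8%).

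**Figure D1:**
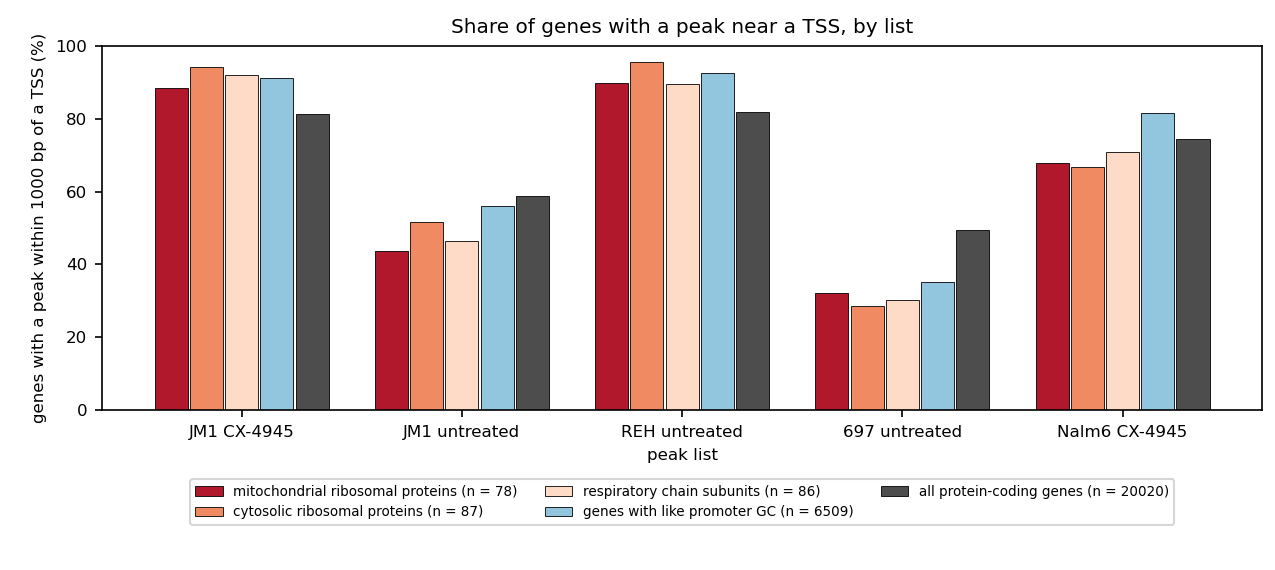
Share of genes with a peak no more than 1000 bp from a TSS (vertical axis, percent) in each of the 5 lists (horizontal axis), for 78 mitochondrial ribosomal protein genes, 87 cytosolic ribosomal protein genes, 86 respiratory chain subunit genes, 6509 protein-coding genes with GC content in the interquartile range of the first group, and all 20020 protein-coding genes. In treated JM1 the 5 shares lie between 81.2 and 94.3%, and in untreated JM1 the lowest, 43.6%, is that of the mitochondrial ribosomal protein genes.

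The base composition of the promoters differed as well. Within 500 bp of the canonical TSS the median GC content was 57.2% for the mitochondrial ribosomal protein genes and 61.3% for all protein-coding genes. Genes with a peak were richer in GC in every list, with medians of 65.4% for all genes with an untreated JM1 peak and 53.9% for those without. The shares were therefore also set beside those of the 6509 genes whose GC content lay within the interquartile range of the mitochondrial ribosomal protein genes, 54.5 to 63.4%. Of the 38 mitochondrial ribosomal protein genes within this range, 36 (94.7%) had a peak in treated JM1, against 91.0% of the genes of like GC content, and 15 (39.5%) in untreated JM1, against 56.1%. The counts were 36 in REH (94.7%, against 92.4%), 9 in 697 (23.7%, against 35.2%) and 27 in Nalm6 (71.1%, against 81.5%). Within this range the shares in treated JM1 and REH were thus close to the background, and those in untreated JM1, 697 and Nalm6 were below it. The match was not exact, as the median GC content within the range was 57.2% for the 38 genes and 59.4% for the 6509. How far base composition contributes to these counts was not tested.

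By quartile of GC content over all genes, 19 of the mitochondrial ribosomal protein genes fell in the lowest quartile, 35 in the second and 12 in each of the upper 2. In the lowest quartile 13 of 19 (68.4%) had a treated JM1 peak, against 40.7% of all genes, and 3 (15.8%) an untreated one, against 17.3%. In the second quartile the counts were 33 of 35 (94.3%, against 89.3%) in treated JM1 and 12 of 35 (34.3%, against 50.9%) in untreated JM1.

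**Figure D2:**
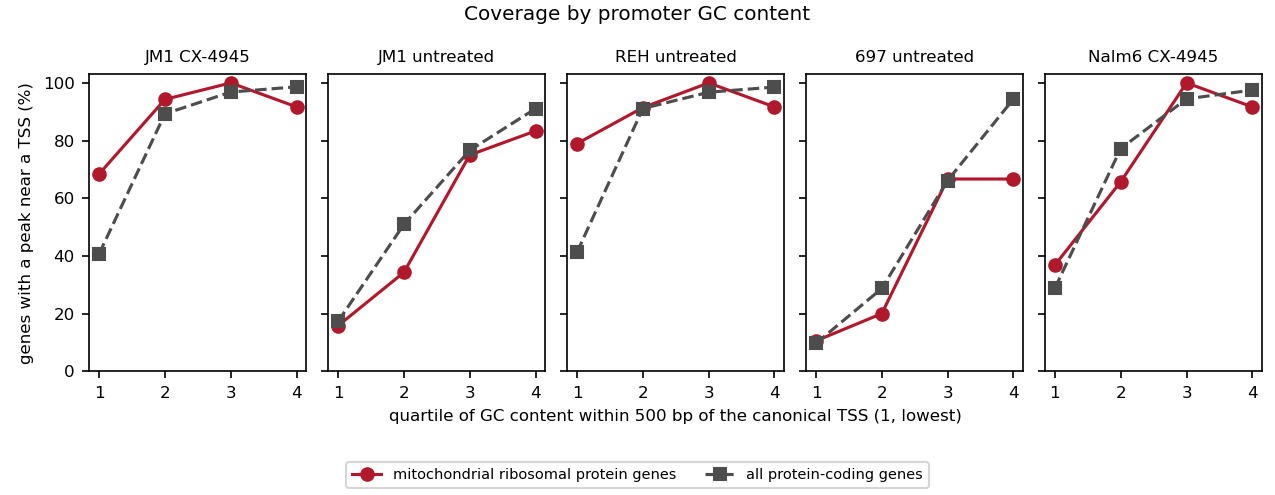
Share of genes with a peak near a TSS (vertical axis, percent) by quartile of GC content within 500 bp of the canonical TSS (horizontal axis), with 1 panel per list, for mitochondrial ribosomal protein genes (circles, n = 19, 35, 12 and 12) and all protein-coding genes (squares). Shares of all genes go up with GC content in every list, and in untreated JM1 the 2 groups differ most in the second quartile, at 34.3 and 50.9%.

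In JM1, 35 of the 78 genes (44.9%) had a peak in the treated list alone, against 23.0% of all protein-coding genes. No mitochondrial ribosomal protein gene had a peak in the untreated list alone, where 0.564% of all genes did. Of the 44 genes with no untreated peak, 35 (79.5%) had a treated one, against 55.9% of the 8247 protein-coding genes with no untreated peak. Among genes in the GC range above, the treated-alone share was 55.3% (21 of 38), against 35.5%, whereas of those with no untreated peak 21 of 23 (91.3%) had a treated one, against 80.8%. The treated list held more than double the peaks of the untreated one, 176.1 against 44.4 Mb of sequence, and a gene is more readily counted in a longer list. With the treated list limited to its 36853 highest-scored peaks, treated-alone genes numbered 24 (30.8%, against 16.4% of all genes), and MRPS22 had an untreated peak alone.

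Among subunits, all 26 small-subunit genes had a peak in treated JM1 and 12 (46.2%) in untreated JM1. Of 51 large-subunit genes, 42 (82.4%) had one in treated JM1 and 22 (43.1%) in untreated JM1. The shares of all protein-coding genes were 81.2% and 58.8%. Treated-alone genes numbered 14 in the small subunit (53.8%) and 20 in the large (39.2%), against 23.0% of all genes. In REH the counts were 23 small-subunit (88.5%) and 46 large-subunit genes (90.2%), against 81.8% of all genes. They were 10 (38.5%) and 15 (29.4%) in 697, against 49.5%, and 18 (69.2%) and 34 (66.7%) in Nalm6, against 74.4%. Of the 47 genes whose protein has a bacterial counterpart, 40 had a peak in treated JM1 and 22 in untreated JM1, and 43, 13 and 29 in REH, 697 and Nalm6. Of the 30 genes for mitochondria-specific proteins, 28 had a peak in treated JM1 and 12 in untreated JM1, and 26, 12 and 23 in REH, 697 and Nalm6. The classes are small and their differences were not tested.

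Peak strength is given as the authors' own score, a whole number whose meaning no source used here defines. It was used within a list, as the percentile of a peak among all peaks of that list. The highest-scored peak near a TSS had a median percentile of 89.9 over the 69 mitochondrial ribosomal protein genes in treated JM1, against 90.5 over all genes with such a peak, and of 65.0 over 34 genes in untreated JM1, against 78.0. The medians were 89.6 in REH (all genes 89.6), 46.7 in 697 (all genes 69.2) and 81.1 in Nalm6 (all genes 86.7). These medians cover only the genes with a peak. The peaks were narrower than those of all genes, with median widths of 1109 bp (all genes 1710 bp) in treated JM1 and 841 bp (1041 bp) in untreated JM1. In REH, 697 and Nalm6 the median widths were 1102, 527 and 967 bp, against 1802, 764 and 1271 bp for all genes.

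**Figure D3:**
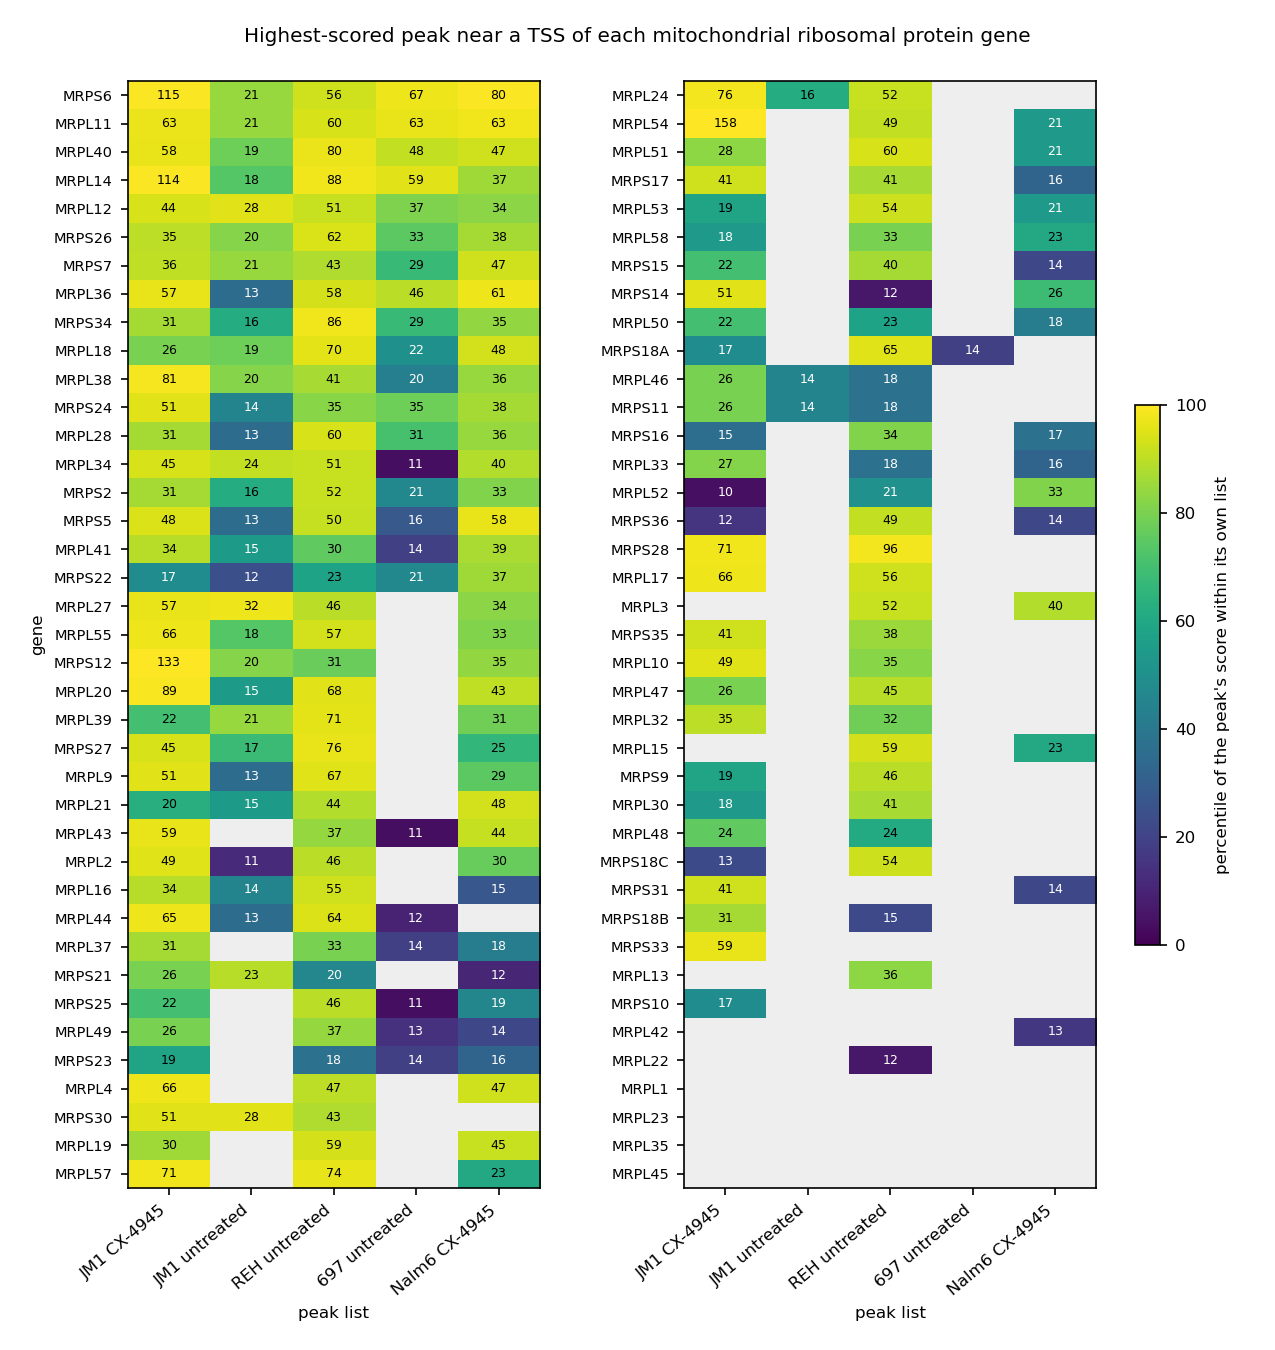
Highest-scored peak no more than 1000 bp from a TSS for each of the 78 genes (rows, in 2 columns sorted by number of lists) in each of the 5 lists (horizontal axis). The number in a cell is the authors' score, the colour its percentile within its own list, and grey marks no peak, as for MRPL1, MRPL23, MRPL35 and MRPL45 in all 5 lists.

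18 genes had a peak in all 5 lists, 23.1% of the 78, against 41.8% of all protein-coding genes. They were MRPL11, MRPL12, MRPL14, MRPL18, MRPL28, MRPL34, MRPL36, MRPL38, MRPL40, MRPL41, MRPS2, MRPS5, MRPS6, MRPS7, MRPS22, MRPS24, MRPS26 and MRPS34. Within the GC range above it was 3 of 38 genes (7.89%), against 25.7%. All 34 genes of the untreated JM1 list also had a peak in treated JM1 and in REH. Of all protein-coding genes with an untreated JM1 peak, 99.0% and 99.2% did. All 25 genes of the 697 list likewise had a peak in treated JM1 and in REH, against 99.3% and 99.4% of all genes with a 697 peak. In the opposite direction these 25 were 36.2% of the treated JM1 genes, against 60.5% over all genes. The next most common sets were treated JM1, REH and Nalm6 with 15 genes (19.2%, against 9.81% of all genes) and treated JM1 with REH with 11 genes (14.1%, against 4.32%). The set of all lists but 697 also held 11 genes (14.1%, against 13.7%).

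MRPS6, which encodes a small-subunit protein with a bacterial counterpart, had the best-ranked coverage across lists at its canonical TSS. Its peak scored 115 in treated JM1 (99.4th percentile), 21 in untreated JM1 (84.8th), 56 in REH (92.9th), 67 in 697 (97.5th) and 80 in Nalm6 (99.5th). The treated JM1 peak lay at chr21:34071349-34074603 and the untreated one at chr21:34072670-34074282. MRPS6 had the highest score of the 78 genes in both 697 and Nalm6. MRPL12, whose product forms the flexible stalk of the large subunit, scored 44 in treated JM1 (93.8th percentile), 28 in untreated JM1 (95.4th), 51 in REH (91.4th), 37 in 697 (80.6th) and 34 in Nalm6 (82.4th). Its REH peak was 17617 bp wide and was named for SLC25A10. MRPL40, of the large subunit, scored 58 in treated JM1 (96.6th percentile), 19 in untreated JM1 (78.0th), 80 in REH (97.1st), 48 in 697 (91.0th) and 47 in Nalm6 (92.7th). MRPS26, of the small subunit, scored 35 in treated JM1 (89.9th percentile), 20 in untreated JM1 (81.7th), 62 in REH (94.4th), 33 in 697 (74.7th) and 38 in Nalm6 (86.7th).

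MRPL14, a large-subunit protein at the interface with the small subunit, scored 114, 18, 88, 59 and 37 in treated JM1, untreated JM1, REH, 697 and Nalm6. The peak was named for TMEM63B, which starts 102 bp away on the opposite strand. MRPS7 of the small-subunit head scored 36, 21, 43, 29 and 47 in the same order. MRPS34 scored 31, 16, 86, 29 and 35, and its treated JM1 peak was 37703 bp wide, spanning several genes. MRPL18 scored 26, 19, 70, 22 and 48, and MRPS2 31, 16, 52, 21 and 33. Within the treated JM1 list these scores stood at the 99.4th percentile for MRPL14, the 90.5th for MRPS7, the 86.7th for MRPS34 and MRPS2, and the 79.8th for MRPL18.

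For 5 genes the peak counted lay away from the canonical TSS in at least 1 list, at another annotated TSS. MRPL11, a large-subunit protein of the factor-binding region, ranked beside MRPS6 with 63 in treated JM1, 21 in untreated JM1, 60 in REH, 63 in 697 and 63 in Nalm6, at a TSS upstream of its canonical one. The treated JM1 peak lay at chr11:66465053-66468383 and the canonical TSS at position 66438848, and the 697 and Nalm6 peaks were named for PELI3. At its canonical TSS MRPL11 had peaks with scores of 28 (treated JM1), 18 (REH) and 18 (Nalm6), and none in untreated JM1 or 697. MRPS22, of the small subunit, had its treated JM1 peak at chr3:139006262-139006591, at the start of a long annotated transcript far upstream of the canonical TSS at position 139344020, and at that TSS it had a peak in Nalm6 alone. MRPL34 lacked a peak at its canonical TSS in 697, and MRPL38 and MRPS27 in untreated JM1. With canonical TSSs alone, genes with a peak numbered 68 in treated JM1 (87.2%, against 78.1% of all genes) and 30 in untreated JM1 (38.5%, against 53.2%). They numbered 69 in REH (88.5%, against 78.8%), 22 in 697 (28.2%, against 45.1%) and 53 in Nalm6 (67.9%, against 70.0%). By the same count, 14 genes had a peak in all 5 lists (17.9%, against 36.2%) and 38 in treated JM1 alone (48.7%, against 25.5%).

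The 250 bases before the RefSeq start (build GRCh38.p14) of MRPS6, MRPL12, MRPL40 and MRPS26 are shown because these genes had a peak at that start in all 5 lists, and those of MRPL1 and MRPL45 because they had none in any. They lie at chr21:34073328-34073577 (plus strand), chr17:81703117-81703366 (plus strand), chr22:19432295-19432544 (plus strand), chr20:3045802-3046051 (plus strand), chr4:77862580-77862829 (plus strand) and chr17:38296918-38297167 (plus strand), and are written 5′ to 3′ in the direction of the gene. Capitals mark GGGAA, the core letters of an Ikaros motif, CCGGAAG, an ETS family motif, and AAGATGGCG, a YY1 motif, each on either strand.
MRPS6: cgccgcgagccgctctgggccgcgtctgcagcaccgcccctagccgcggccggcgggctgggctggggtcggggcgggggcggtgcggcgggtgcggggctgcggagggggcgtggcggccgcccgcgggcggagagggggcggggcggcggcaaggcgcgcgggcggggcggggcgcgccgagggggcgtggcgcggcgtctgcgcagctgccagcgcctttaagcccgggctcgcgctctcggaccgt
MRPL12: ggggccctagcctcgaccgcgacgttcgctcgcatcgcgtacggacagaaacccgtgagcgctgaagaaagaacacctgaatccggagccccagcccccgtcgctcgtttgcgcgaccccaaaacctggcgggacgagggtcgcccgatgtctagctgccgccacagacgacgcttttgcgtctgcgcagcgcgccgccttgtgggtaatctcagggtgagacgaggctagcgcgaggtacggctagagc
MRPL40: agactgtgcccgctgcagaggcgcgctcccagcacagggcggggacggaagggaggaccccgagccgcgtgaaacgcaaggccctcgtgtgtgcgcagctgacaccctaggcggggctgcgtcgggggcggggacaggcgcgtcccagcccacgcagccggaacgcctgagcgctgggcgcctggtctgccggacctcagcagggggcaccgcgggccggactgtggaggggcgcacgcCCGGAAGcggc
MRPS26: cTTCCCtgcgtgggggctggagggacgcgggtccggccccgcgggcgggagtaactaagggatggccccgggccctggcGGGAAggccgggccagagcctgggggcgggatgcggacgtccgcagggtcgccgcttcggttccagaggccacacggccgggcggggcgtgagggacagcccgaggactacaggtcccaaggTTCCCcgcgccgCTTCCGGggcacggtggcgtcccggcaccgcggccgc
MRPL1: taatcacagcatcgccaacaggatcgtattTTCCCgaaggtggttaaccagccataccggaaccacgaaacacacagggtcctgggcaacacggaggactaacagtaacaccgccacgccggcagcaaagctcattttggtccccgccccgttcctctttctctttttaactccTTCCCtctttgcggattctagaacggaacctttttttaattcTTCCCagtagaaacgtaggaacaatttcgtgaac
MRPL45: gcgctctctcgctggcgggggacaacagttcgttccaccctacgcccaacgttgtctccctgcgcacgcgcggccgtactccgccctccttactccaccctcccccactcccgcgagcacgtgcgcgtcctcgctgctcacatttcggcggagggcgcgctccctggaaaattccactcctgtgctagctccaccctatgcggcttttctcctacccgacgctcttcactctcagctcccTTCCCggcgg
MRPS6 and MRPL12 held none of the 3 motifs in these bases, MRPL40 had the ETS letters and MRPS26 had GGGAA 3 times and the ETS letters. GGGAA stood 3 times before MRPL1 and once before MRPL45, both without a peak. A match to these letters is a description and not a binding site.

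The gene with the highest score of the 78 in treated JM1 was MRPL54, a large-subunit protein specific to mitochondria, with 158 (99.8th percentile) at chr19:3759403-3763480. It had no peak in untreated JM1 or 697 and scored 49 in REH and 21 in Nalm6. The authors' annotation put that peak in an intron of APBA3, which starts 990 bp away on the opposite strand, and the nearest untreated JM1 peak lay 4558 bp away. MRPS12, a small-subunit protein of the decoding centre, followed with 133 in treated JM1 (99.6th percentile), 20 in untreated JM1 (81.7th), 31 in REH and 35 in Nalm6. It shares its start region with SARS2, the mitochondrial seryl-tRNA synthetase gene, 181 bp away. MRPL20 scored 89 in treated JM1, 15 in untreated JM1, 68 in REH and 43 in Nalm6, and had no peak in 697.

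After MRPL54, the treated-alone genes with the highest treated JM1 scores were MRPL57 and MRPS28 with 71 each, MRPL4 and MRPL17 with 66 each, MRPL43 and MRPS33 with 59 each, MRPS14 with 51, MRPL10 with 49 and MRPS17 with 41, a score shared by MRPS31 and MRPS35. REH had a peak for each of these but MRPS33 and MRPS31. The lowest REH score was that of MRPS14 at 12, and the highest that of MRPS28 at 96, the highest of all 78 genes in REH. MRPS33 scored at the 96.8th percentile in treated JM1, at chr7:141014795-141015323, and had no peak near a TSS in the other 4 lists. MRPL57, MRPL4, MRPL43, MRPS14, MRPS17 and MRPS31 also had a peak in Nalm6, with scores of 23, 47, 44, 26, 16 and 14. MRPL43 encodes a large-subunit protein and shares its start region with TWNK, the mitochondrial DNA helicase gene. Of the treated-alone genes named in this paragraph, MRPL43 was the only one with a peak in 697, where its score was 11.

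In untreated JM1 the highest scores were those of MRPL27 with 32 (97.5th percentile), MRPL12 and MRPS30 with 28 each, MRPL34 with 24 and MRPS21 with 23. These 5 genes scored 57, 44, 51, 45 and 26 in treated JM1 in that order. MRPS30 peaks carried no gene name in the 2 JM1 lists and in REH. The Nalm6 list held no unnamed peak at all, and MRPS30 had no peak there, so an absence of MRPS30 in Nalm6 cannot be told apart from the absence of unnamed peaks. In REH, MRPS28, MRPL14, MRPS34, MRPL40 and MRPS27 led with 96, 88, 86, 80 and 76. The MRPS27 score came from a peak at another annotated TSS, and at its canonical TSS MRPS27 scored 39. In 697, MRPS6, MRPL11, MRPL14, MRPL40 and MRPL36 led with 67, 63, 59, 48 and 46, and in Nalm6 MRPS6, MRPL11, MRPL36, MRPS5 and MRPL18 led with 80, 63, 61, 58 and 48, the last score shared by MRPL21.

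The 34 genes with a peak in both JM1 lists had a median GC content of 62.7%, against 65.5% for all genes with both, and the 35 treated-alone genes 55.8%, against 57.9%. In treated JM1 the highest-scored peaks had a median score of 27 at the treated-alone genes, against 26 over all treated-alone genes. At the genes with both it was 46.5, against 39 over all genes with both. The median widths were 814 bp at the 35 treated-alone genes and 1680 bp at the 34 with both. Lists other than JM1 took no part in this division. REH had a peak at 32 of the 35 treated-alone genes (91.4%, against 89.7% of all treated-alone genes), Nalm6 at 21 (60.0%, against 72.6%) and 697 at 6 (17.1%, against 28.7%). The untreated JM1 peak nearest to a TSS of a treated-alone gene lay a median of 20388 bp away. The closest was 1538 bp away, at MRPS18B, and 5 of the 35 genes had one within 5 kb.

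**Figure D4:**
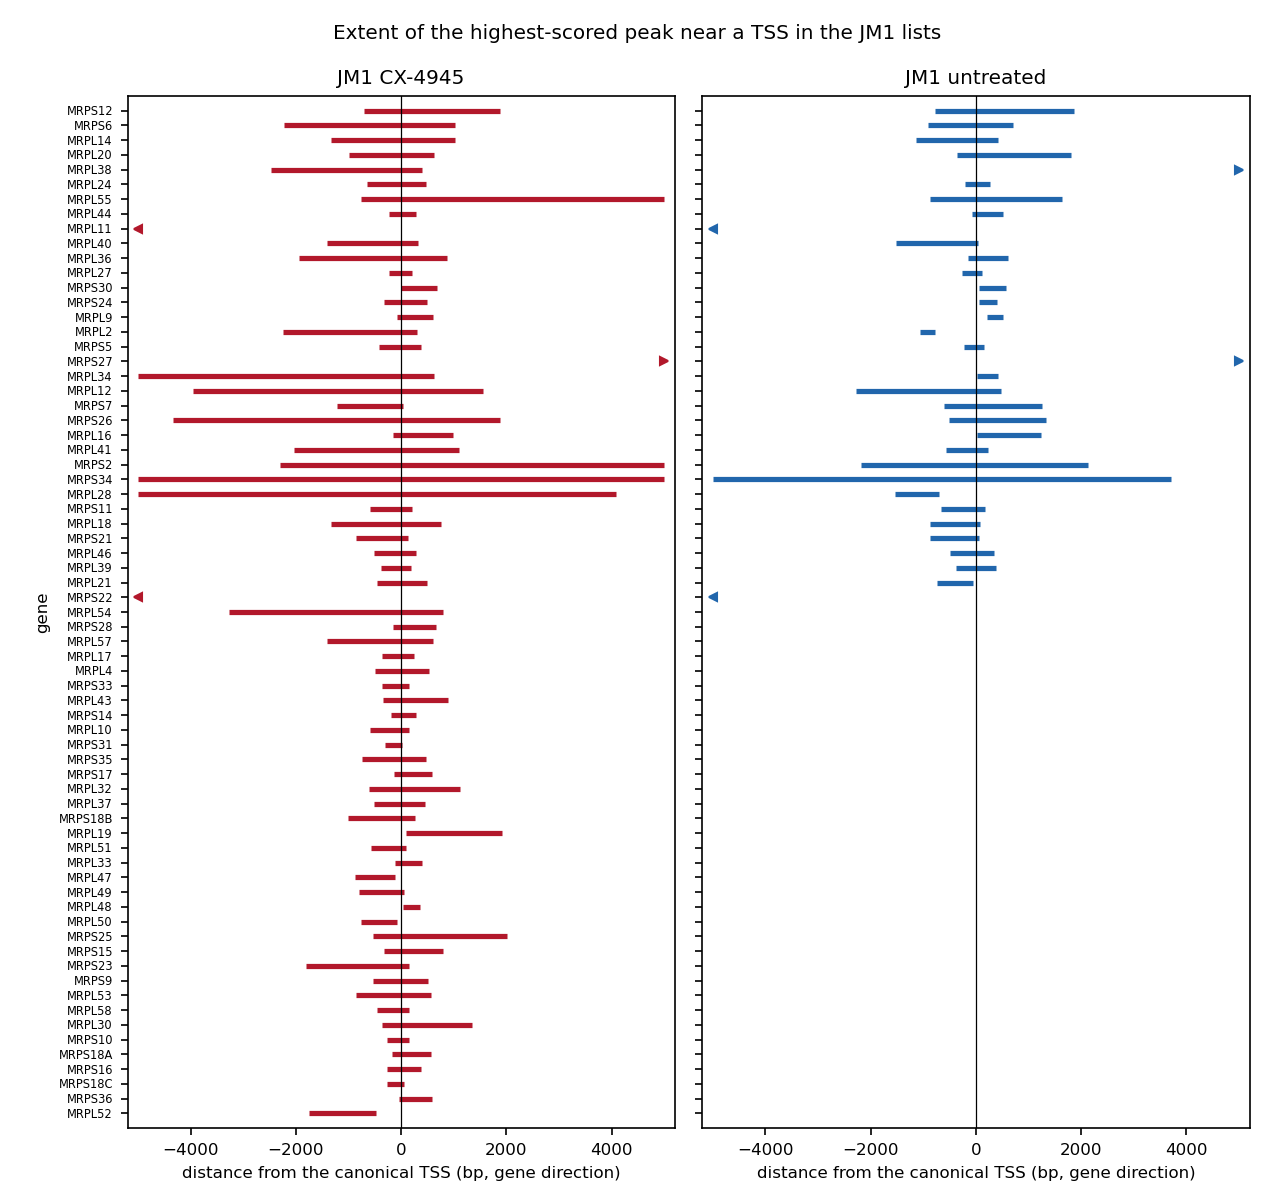
Extent of the highest-scored peak near a TSS in treated JM1 (left) and untreated JM1 (right) for each gene with a treated peak, relative to its canonical TSS (horizontal axis, bp in the direction of the gene). The upper rows are the 34 genes with a peak in both lists and the lower rows the 35 with a treated peak alone, each sorted by treated score, and arrowheads mark peaks that lie outside the plotted range.

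Peak by peak, 81 treated JM1 peaks and 37 untreated JM1 peaks lay near a TSS of these genes. Of the treated peaks 34 (42.0%, 95% exact Clopper-Pearson interval 31.1 to 53.5%, for counting error only) overlapped one of the untreated peaks by at least 1 bp, and all 37 untreated peaks overlapped a treated one. When the overlap had to cover 50% of both peaks, 14 of the treated (17.3%) and 13 of the untreated peaks (35.1%) were matched. The same shares over the peaks of all genes are not given here. By gene, 99.0% of all protein-coding genes with an untreated JM1 peak also had a treated one.

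4 genes, MRPL1, MRPL23, MRPL35 and MRPL45, had no peak near a TSS in any list, 5.13% of the 78, against 14.6% of all protein-coding genes. All encode large-subunit proteins. MRPL1 forms the mobile stalk beside the exit site, MRPL23 and MRPL45 lie near the mouth of the exit tunnel, and MRPL45 is known to anchor the ribosome to the inner membrane. Promoter GC content was 48.4% for MRPL1, 50.8% for MRPL35, 55.8% for MRPL45 and 78.1% for MRPL23. MRPL23 thus belonged to the highest GC quartile, in which 98.6% of all genes had a treated JM1 peak. 5 more genes had a peak in 1 list. MRPL13 and MRPL22 had theirs in REH, with scores of 36 and 12, MRPL42 had one in Nalm6 with 13, and MRPS10 and MRPS33 in treated JM1 with 17 and 59.

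Many mitochondrial ribosomal protein genes share their start region. A protein-coding gene on the opposite strand had a TSS no more than 1000 bp, on either side, from the canonical TSS of 29 of the 78 (37.2%), against 13.9% of all protein-coding genes. In several such pairs the partner serves mitochondria or translation too, as in MRPS12 with SARS2, MRPL43 with TWNK, MRPL47 with NDUFB5, a subunit of complex I, MRPL49 with FAU, which encodes a cytosolic ribosomal protein fused to a ubiquitin-like protein, and MRPL46 with MRPS11. Peaks were listed at 28 of these 29 genes in treated JM1 (96.6%, against 95.1% of all genes with such a partner) and at 14 in untreated JM1 (48.3%, against 66.6%). The counts were 29 in REH (100%, against 96.1%), 9 in 697 (31.0%, against 49.2%) and 20 in Nalm6 (69.0%, against 83.6%). The shares in treated JM1 and REH were thus near the background, and the other 3 were below it. Of the 49 genes without such a partner, 41 had a peak in treated JM1 (83.7%, against 79.0%), 20 in untreated JM1 (40.8%, against 57.5%), 41 in REH (83.7%, against 79.5%), 16 in 697 (32.7%, against 49.6%) and 33 in Nalm6 (67.3%, against 72.9%). MRPL46 and MRPS11 shared the same peak, with scores of 26 in treated JM1, 14 in untreated JM1 and 18 in REH. A peak in such a region cannot be assigned to one of the 2 genes. In treated JM1 the highest-scored peak did not bear the gene's own name at 21 of the 69 genes. Of these 21, MRPL54, MRPL14, MRPL57, MRPL55 and MRPS30 had the highest scores, at 158, 114, 71, 66 and 51.

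Motif letters were counted in the RefSeq promoters, which run from 250 bases before to 50 after the start, of the 69 genes found in that table and of 15345 protein-coding genes. GGGAA, on either strand, stood in 46 of 69 (66.7%), against 66.2% of all promoters, and TGGGAA, which contains it, in 15 (21.7%), against 22.1%. The Ikaros core letters were thus no more frequent than in the background. CCGGAAG stood in 30 promoters (43.5%), against 14.8%, and AAGATGGCG in 13 (18.8%), against 2.98%. NRF1 is known as a regulator of nuclear genes for mitochondrial proteins, and its motif with a free base, GCGCANGCG, stood in 14 (20.3%), against 11.5%. The planned NRF1 motif, 1 base longer, stood in 9 promoters with the free base (13.0%, against 8.88%) and in 1 without it (1.45%, against 1.77%). GGGCGG, an SP1 motif, stood in 41 (59.4%), against 61.8%, and CCAAT in 20 (29.0%), against 36.6%. Matches to different motifs may overlap.

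**Figure D5:**
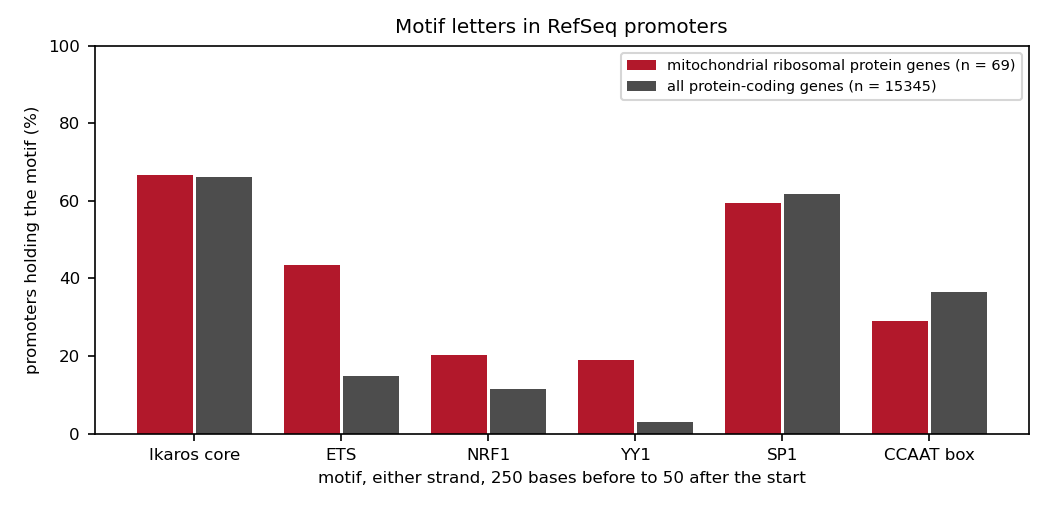
Share of promoters (vertical axis, percent) that hold the letters of each motif on either strand (horizontal axis), for 69 mitochondrial ribosomal protein genes and 15345 protein-coding genes. The groups differ most for the ETS motif, at 43.5 and 14.8%, and the YY1 motif, at 18.8 and 2.98%.

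The ETS letters stood in 17 of 32 promoters of treated-alone genes (53.1%, against 19.6% of all treated-alone genes) and in 12 of 32 of genes in both JM1 lists (37.5%, against 15.6%). GGGAA stood in 20 of 32 (62.5%, against 67.9%) and 21 of 32 (65.6%, against 66.9%) in the same groups. The 250 bases before the start of MRPL54, MRPL43 and MRPS31 are shown because these are the treated-alone genes with the highest treated scores that hold the ETS letters within those 250 bases. In MRPS33, with a treated score of 59, the ETS letters begin at the start itself. The choice was made after the values had been seen. They lie at chr19:3762432-3762681 (plus strand), chr10:100987498-100987747 (minus strand) and chr13:40771191-40771440 (minus strand), and the capitals mark the same letters as above.
MRPL54: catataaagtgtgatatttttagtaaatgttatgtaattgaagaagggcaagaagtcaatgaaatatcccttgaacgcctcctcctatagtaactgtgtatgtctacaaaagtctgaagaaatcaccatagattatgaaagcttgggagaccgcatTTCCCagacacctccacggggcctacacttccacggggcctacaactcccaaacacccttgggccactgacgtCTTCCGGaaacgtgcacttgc
MRPL43: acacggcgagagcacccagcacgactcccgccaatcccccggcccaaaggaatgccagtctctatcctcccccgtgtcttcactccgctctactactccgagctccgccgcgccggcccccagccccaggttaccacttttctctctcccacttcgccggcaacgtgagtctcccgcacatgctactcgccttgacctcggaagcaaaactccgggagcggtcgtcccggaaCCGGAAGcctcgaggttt
MRPS31: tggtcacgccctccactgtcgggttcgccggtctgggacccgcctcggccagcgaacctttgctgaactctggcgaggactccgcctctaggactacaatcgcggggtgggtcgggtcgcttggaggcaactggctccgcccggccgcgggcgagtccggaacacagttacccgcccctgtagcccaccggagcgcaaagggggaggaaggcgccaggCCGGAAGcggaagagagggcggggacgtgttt
In these 3 promoters the ETS letters begin 21, 18 and 32 bases before the start, and MRPL54 also holds GGGAA. MRPS31, of the small subunit, scored 41 in treated JM1 and 14 in Nalm6 and had no peak in the other 3 lists.

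Beyond the TSSs, 197 peaks bore the name of a mitochondrial ribosomal protein gene without lying near any TSS of the 78. There were 70 in treated JM1, 13 in untreated JM1, 66 in REH, 7 in 697 and 41 in Nalm6. MRPS10 had 38 of them, MRPS22 27, MRPL36 23 and MRPL46 20. In treated JM1, the authors classed 36 of the 70 as intronic and 24 as intergenic. The name does not place a peak within that gene or its introns. MRPS10 lies at chr6:42206807-42217861, and all 38 of its named peaks away from a TSS began at position 42232585 or beyond. The median score of the named peaks away from a TSS was 15 in treated JM1, against 31 for the peaks near a TSS, and 28 in 697, against 21.5.

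Other genes for mitochondrial gene expression and for ribosomes were counted by the same rule. Of 87 cytosolic ribosomal protein genes, 82 had a peak in treated JM1 and 45 in untreated JM1, and 38 (43.7%) had one in treated JM1 alone. Of 86 nuclear genes for respiratory chain and ATP synthase subunits, 79 had a peak in treated JM1 and 40 in untreated JM1, and 39 (45.3%) in treated JM1 alone. Both shares lie beside the 44.9% of the mitochondrial ribosomal protein genes, against 23.0% of all protein-coding genes. A peak in all 5 lists was found for 20.7% of the cytosolic ribosomal protein genes and 20.9% of the respiratory chain genes. These shares too lie beside that of the mitochondrial ribosomal protein genes, 23.1%, against 41.8% of all protein-coding genes. By the same rule 81.2% of all protein-coding genes had a peak in treated JM1 and 58.8% in untreated JM1. Of 26 genes for assembly factors of the mitochondrial ribosome, 25 had a treated JM1 peak and 12 an untreated one. The counts were 15 and 9 of 18 mitochondrial translation factors, 16 and 10 of 17 mitochondrial aminoacyl-tRNA synthetases, and 9 and 6 of 9 genes of mitochondrial transcription and replication. Of 5 mitochondrial ribosomal proteins with other names, 5 had a treated peak and 2 an untreated one, and DAP3, of the small subunit, had the highest treated score of these with 79.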

How the data were processed

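5 peak lists were analysed, 1 per condition. BBDuk was used for trimming, per the labels' protocols. Per the submitters' processing notes, the tools were HOMER 4.10, MACS2 2.1.1 and Bowtie2 2.3.4.3, with the build GRCh38. Not given in the sources used here are the settings and control of the peak calls, what the score measures, and whether the Nalm6 list came from 1 or both Ikaros libraries. Each peak's position, whole-number score, class and gene name were deposited by the authors, per the file headers. The 5 input libraries were not analysed here.

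From these lists, peaks were matched with Python 3.11.15 and pandas 2.3.3 to all TSSs of GENCODE 44 transcripts of 20020 protein-coding symbols, a peak being counted when no more than 1000 bp separated it from a TSS, after a check on made-up peaks with known answers. The highest-scored match was taken per gene. Promoters came from RefSeq, GRCh38.p14. The GC comparison, the untreated list's length as a limit for both JM1 lists, the shorter NRF1 motif and the canonical-start condition on the promoters shown (which replaced MRPL11 by MRPS26) were chosen after seeing the data.

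The genes named were, per list, the 5 highest scores, the 10 genes in all 5 lists with the highest lowest percentile, the 10 treated-alone genes with the highest treated scores, those in at most 1 list, and the 5 highest-scored with a peak not under their own name. The genes and lists were chosen with earlier results of these data known. Alternatives were other TSS windows, canonical TSSs, peak centres, the authors' names, a score minimum of 20, equal list lengths, a stricter overlap and other gene sets.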

Additional observations from a re-analysis of the deposited data

How the results depend on the processing

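Of 98 recomputed values, 86 stayed within 1.5 times the value reported, or, for median percentiles, within the interquartile range over the genes, or, for shared peaks, within the exact interval, and 12 did not. Some of the 86 could not move. The limits on list length removed no 697 peak, and the untreated JM1 length removed no untreated JM1 peak. Leaving out MRPS36 or adding the proteins with other names changed few genes. Under the authors' own gene names in their promoter class, which give each peak to 1 gene, genes with a peak numbered 42 in treated JM1 (53.8%, against 45.7% of all protein-coding genes), 18 in untreated JM1 (23.1%, against 34.3%), 35 in REH (44.9%, against 44.9%), 12 in 697 (15.4%, against 30.3%) and 30 in Nalm6 (38.5%, against 43.6%), and 3 had one in all 5 lists (3.85%, against 12.5%). Under this setting the genes did not stand above the background in REH. With a score of at least 20, genes with a peak numbered 12 in untreated JM1 (15.4%, against 26.6%) and 15 in 697 (19.2%, against 39.5%), and 6 in all 5 lists (7.69%, against 17.6%). The same minimum left 57 in treated JM1 (73.1%, against 71.8%), close to the background, and 63 in REH (80.8%, against 76.8%). With lists of equal length, genes with a peak numbered 20 in untreated JM1 (25.6%, against 42.2%) and 31 in Nalm6 (39.7%, against 53.9%). In treated JM1 they then numbered 51 (65.4%, against 60.5%) and in REH 56 (71.8%, against 61.6%). Fewer peaks enter under each of these settings by construction. A reciprocal overlap of 50% matched 17.3% of the treated JM1 peaks. Genes with a peak in treated JM1 alone numbered between 24 and 45 over all settings, each above the share of all protein-coding genes. With the peak centre as the rule, 5 genes had a peak in untreated JM1 alone (MRPL12, MRPL28, MRPL55, MRPS26 and MRPS34), against 6.19% of all genes. No paired analysis was possible because each condition had 1 list and no test was made. Leaving out a replicate was not possible for the same reason. Read depth is unknown, and longer lists hold more genes.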
